A study of Mus musculus with 5 samples.

Results

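The growth hormone (GH) and STAT5 axis of the liver was followed here through 10 genes: Ghr, Igf1, Igfals, Socs2, Cish, Stat5a, Stat5b, Bcl6, Hsd3b5 and Elovl3. They were chosen by symbol, and all 10 were found among the 32285 genes of the matrices. Single-nucleus RNA sequencing (snRNA-seq) had been carried out on sorted nuclei from snap-frozen livers of male wild-type C57BL6/J mice. In 3 libraries the mice had eaten regular chow, and in 2 libraries a diet for metabolic dysfunction–associated steatohepatitis (MASH), with 2% cholesterol, 20 kcal% from fructose and 40 kcal% from fat. Feeding began at 10 to 12 weeks of age and went on for 5 months. Neither the number of mice behind a library nor any preparation batch is given, so the library was the replicate and p-values measure the spread between libraries, which may be technical. A nucleus was counted as a hepatocyte nucleus when it held at least 2000 unique molecular identifiers (UMIs, which count RNA molecules) and at least 1 UMI of Hnf4a, a transcription factor of hepatocytes. The gate kept 23267 of 57080 barcodes, of which chow replicates 1 to 3 gave 4222, 6744 and 7006, and MASH gave 2684 (replicate 1) and 2611 (replicate 2).

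GH is released from the pituitary in pulses and binds its receptor, the product of Ghr, on hepatocytes. The receptor activates the kinase JAK2, which phosphorylates STAT5A and STAT5B, and these move to the nucleus and switch on target genes. Among the targets are Igf1, which encodes the circulating growth factor IGF-1, Igfals, whose product holds IGF-1 in a long-lived serum complex, and Socs2 and Cish, which encode inhibitors that feed back on the receptor. In male rodents the pulses maintain male-biased genes such as Hsd3b5, a steroid reductase, and Elovl3, a fatty acid elongase, while BCL6 is a repressor that binds many of the same sites as STAT5.

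Coordinates of the 10 genes are from the GENCODE annotation of GRCm38. Ghr lies at chr15:3317760-3583492 (minus strand), Igf1 at chr10:87858265-87937042 (plus), Igfals at chr17:24865997-24882010 (plus), Socs2 at chr10:95385362-95417180 (minus) and Cish at chr9:107296026-107302784 (plus). Stat5a at chr11:100859351-100885169 (plus) and Stat5b at chr11:100780731-100850724 (minus) are neighbours, followed by Bcl6 at chr16:23965052-23988852 (minus), Hsd3b5 at chr3:98618634-98630252 (minus) and Elovl3 at chr19:46131897-46135694 (plus). Stat5a overlaps Stat3 on the opposite strand, Hsd3b5 overlaps Zfp697, Elovl3 overlaps Pitx3, and Igf1, Cish and Bcl6 each overlap a noncoding or predicted gene on the opposite strand.

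RefSeq promoter windows (GRCm38.p6, 250 bases before to 50 bases after a start) were matched by symbol for 8 of the 10 genes, all but Socs2 and Elovl3, and gave 14 windows. They were searched for TTCNNNGAA, the palindrome bound by STAT factors, which reads the same on both strands. No other motif was searched. A match stood in 5 of the 14 windows, belonging to Cish, Igfals and Bcl6. The single window of Hsd3b5 lies in an intron of Zfp697, outside the GENCODE model of Hsd3b5, so it may not hold the promoter of that gene. Among all 32851 RefSeq windows, 8.30% held a match, 0.457% held 2 or more and 0.0335% held 3 or more. The stretches around the matches of Cish, Igfals and the outer start of Bcl6 are printed because these targets or regulators are followed below, in each case 5′ to 3′ on the strand of the gene, with the matches in capitals. The Cish stretch holds 2 matches, which begin at bases 1 and 12 of the RefSeq transcript, and the Igfals stretches come from different starts.
Cish, chr9:107296654-107296683: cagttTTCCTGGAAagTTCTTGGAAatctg
Igfals, chr17:24877603-24877632: ataatTTCTCAGAAaagaggctgaggaata
Igfals, chr17:24878168-24878197: aggtgTTCCTAGAAgaggccctgggggagg
Bcl6, chr16:23988946-23988975: attagTTCTCAGAAttccagaggccgagct
The inner RefSeq start of Bcl6 lies in an intron of Bcl6 in the GENCODE annotation, and its 250 upstream bases hold 3 matches, which begin at positions -168, -122 and -88 from the start. They are printed whole to show this spacing.
Bcl6, chr16:23981284-23981533: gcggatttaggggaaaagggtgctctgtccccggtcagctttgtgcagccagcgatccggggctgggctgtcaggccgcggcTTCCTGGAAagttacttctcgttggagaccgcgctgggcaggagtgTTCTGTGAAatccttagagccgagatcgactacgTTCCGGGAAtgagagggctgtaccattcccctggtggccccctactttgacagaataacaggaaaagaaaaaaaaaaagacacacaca
No factor binding was measured here, and a match describes the letters only.

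The libraries held 35612373 to 49137377 UMIs over all barcodes, and the hepatocyte nuclei had median depths of 3871.5 to 5475 UMIs. All 9 hepatocyte markers were found in every library, with a summed level of 15165 to 19217 unscaled CPM (each gene's UMIs relative to all UMIs of the sum) in chow and 7963 and 8190 in MASH. Hnf4a, on which the choice of nuclei rests, stood at 374, 501 and 466 unscaled CPM in chow and 284 and 255 in MASH. Of the nuclei with enough UMIs, 64.6% to 78.7% in chow and 43.4% and 45.5% in MASH were counted as hepatocyte nuclei. A lower Hnf4a level and a larger share of other cells cannot be told apart in these numbers. Nuclei with stellate markers and no Hnf4a UMI, described below, numbered 518, 244 and 391 in chow and 1177 and 1472 in MASH. Markers of several other cell types moved with diet inside the hepatocyte gate. The 8 macrophage markers summed to 36.5 to 51.3 unscaled CPM in chow against 101 and 208 in MASH. The 7 stellate markers summed to 72.4 to 102 in chow against 190 and 223 in MASH. Cholangiocyte, T or NK and B cell markers were also higher in both MASH libraries than in any chow library, whereas endothelial markers (245, 72.3 and 77.9 in chow against 160.0 and 198 in MASH) and neutrophil markers overlapped. Nuclei with UMIs of 2 or more markers of another lineage made up 7.10% to 13.9% of chow and 24.9% and 31.2% of MASH hepatocyte nuclei. Chow replicate 3 stood apart from the other chow libraries, with correlations of log levels across genes of 0.952 and 0.965 with them against 0.975 between replicates 1 and 2, and with 5593 unscaled CPM of Fgb against 2920 and 2182. Pairs of libraries shared 23 to 48 cell barcodes.

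Diet was compared first. In MASH hepatocyte nuclei 5 of the 10 genes fell, namely Igf1, Socs2, Cish, Hsd3b5 and Elovl3, and none rose. The genes of the receptor and the STAT5 factors did not pass the test in either direction. Differences were tested on UMI sums per library with edgeR's quasi-likelihood test and Benjamini-Hochberg adjustment over 15414 genes, with the call set at an adjusted p under 0.05. The same test called 13.7% of all genes, 4.48% as lower and 9.26% as higher in MASH. The MASH libraries lay wholly outside the chow range for 6 of the 10 genes and for 54.3% of all genes tested. Levels are given below as CPM scaled by the trimmed mean of M-values (TMM-scaled CPM), and they are compared within a gene and not between genes.

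**Figure D1:**
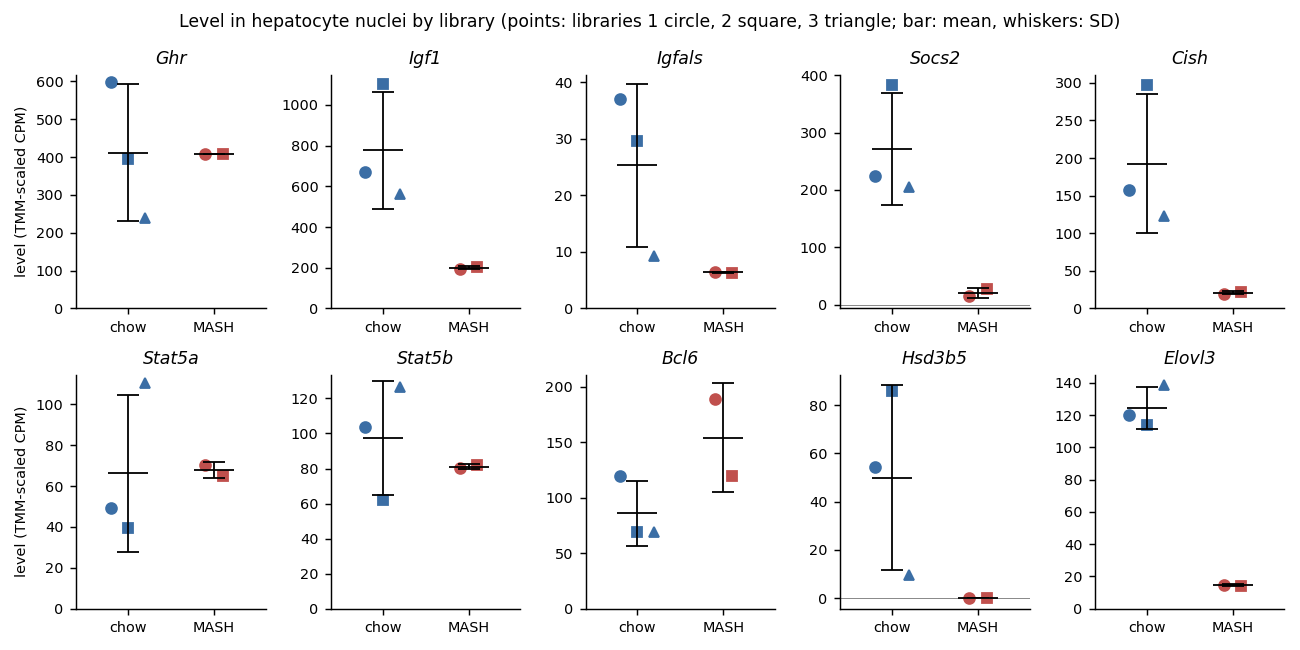
TMM-scaled CPM (y axis, linear, from 0) of each of the 10 genes in hepatocyte nuclei, by diet (x axis), with a point per library and the mean with its SD. For Igf1, Igfals, Socs2, Cish, Hsd3b5 and Elovl3 both MASH points lie below all chow points, while for Ghr, Stat5a and Stat5b they lie inside the chow range.

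Ghr, the receptor gene, had 600, 395 and 239 TMM-scaled CPM in chow (replicates 1 to 3, the order used throughout) against 408 and 408 in MASH. Both MASH libraries thus lay between the chow extremes. The log2 fold change of MASH over chow was -0.01 ± 0.41 (SE, edgeR adjusted p = 0.989), so an effect smaller than the spread of chow was not detectable.

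Stat5a had 49.1, 39.5 and 110 TMM-scaled CPM in chow and 70.5 and 65.1 in MASH. Stat5b had 104, 62.1 and 126 in chow and 80.1 and 82.0 in MASH. For both transducers the MASH libraries were alike and lay inside the range of chow, in which replicate 3 was highest. The log2 fold changes were 0.03 ± 0.43 (edgeR adjusted p = 0.965) for Stat5a and -0.27 ± 0.32 (adjusted p = 0.599) for Stat5b.

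Igf1 had 669, 1104 and 561 TMM-scaled CPM in chow and 194 and 206 in MASH. It rested on 65530 chow and 7530 MASH UMIs, and every chow library stood above both MASH libraries. The level was 3.89-fold lower in MASH (log2 fold change -1.96 ± 0.40, edgeR adjusted p = 0.0216). With 1 MASH library left out the log2 fold change was -1.93 and -2.003, and the adjusted p was 0.199 without replicate 1 and 0.193 without replicate 2.

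Igfals, the gene of the partner that keeps IGF-1 in serum, had 37.1, 29.6 and 9.29 TMM-scaled CPM in chow and 6.44 and 6.30 in MASH. Chow replicate 3 was much nearer to MASH than to the other chow libraries, although the groups did not overlap. The log2 fold change was -1.99 ± 0.56 (edgeR adjusted p = 0.0521), just outside the threshold, and without chow replicate 3 it was -2.45 (adjusted p = 0.00359).

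Both feedback inhibitors fell. Socs2 had 225, 382 and 205 TMM-scaled CPM in chow and 14.7 and 27.4 in MASH, which was 12.8-fold lower (log2 fold change -3.68 ± 0.46, edgeR adjusted p = 0.00539). The lowest chow library exceeded the highest MASH library by several fold. Cish had 158, 297 and 123 TMM-scaled CPM in chow and 19.7 and 22.2 in MASH, or 9.20-fold lower (log2 fold change -3.20 ± 0.44, edgeR adjusted p = 0.00725). Its call was lost without MASH replicate 1 (log2 fold change -3.13, adjusted p = 0.0677) and without MASH replicate 2 (-3.29, adjusted p = 0.0640), whereas Socs2 passed under every alternative that was run.

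Bcl6, the repressor, had 120, 68.7 and 68.9 TMM-scaled CPM in chow and 189 and 119 in MASH. MASH replicate 2 was level with chow replicate 1, so the groups overlapped. The log2 fold change was 0.84 ± 0.34 (edgeR adjusted p = 0.131), and it reached 1.16 (adjusted p = 0.0394) without chow replicate 1.

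Hsd3b5 had 54.4, 85.8 and 9.72 TMM-scaled CPM in chow and 0.179 and 0 in MASH. In UMIs this was 1418, 2441 and 289 against 3 and 0. Chow replicate 3 was again the low chow library, as it was for Igfals. The pooled ratio of MASH to chow was 0.00210, with a 95% counting interval of 0.000433 to 0.00615 that covers counting error only. The gene was called (edgeR adjusted p = 0.00896), and the call was lost without MASH replicate 2 (adjusted p = 0.0557). Reads of Hsd3b5 can be shared with near-identical paralogs. Hsd3b2 (log2 fold change 0.37, adjusted p = 0.656) and Hsd3b3 (0.62, adjusted p = 0.552) had MASH means above chow, Hsd3b7, an enzyme of bile acid synthesis, had -0.84 (adjusted p = 0.108), and Hsd3b1, Hsd3b4 and Hsd3b6 had 0 UMIs in hepatocyte nuclei.

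Elovl3 was the gene among those that fell with the least relative spread in chow. It had 120, 113 and 139 TMM-scaled CPM in chow and 15.03 and 14.2 in MASH, an 8.50-fold lower level (log2 fold change -3.09 ± 0.26, edgeR adjusted p = 0.00185). It was called under every alternative, and the log2 fold change ranged from -3.29 to -2.75.

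**Figure D2:**
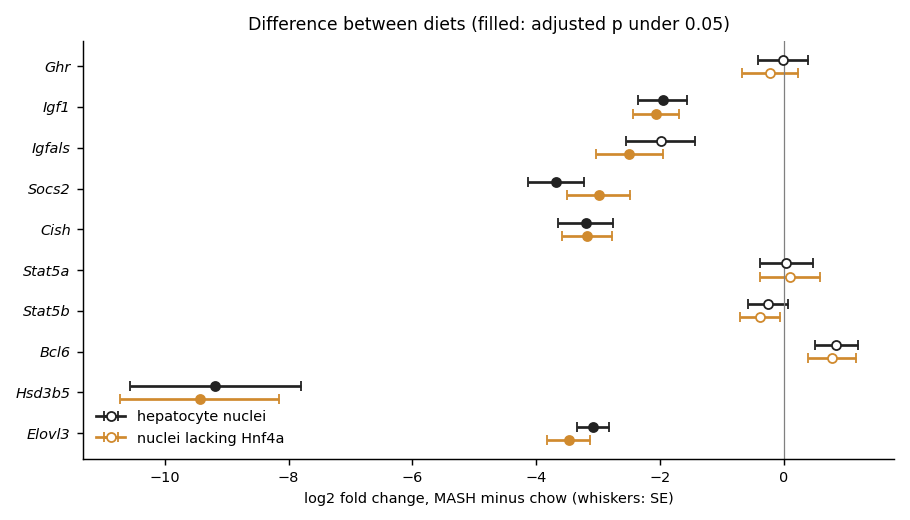
Log2 fold change of MASH over chow (x axis, with SE) for each gene (y axis) in hepatocyte nuclei (black) and in nuclei lacking Hnf4a (orange), filled where the adjusted p was under 0.05. In both classes Igf1, Socs2, Cish, Hsd3b5 and Elovl3 are filled and lie left of 0, and Igfals is filled in the nuclei lacking Hnf4a only.

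The count of calls was the same under each scaling. With DESeq2 size factors and with total UMIs alone the same number of axis genes, 5, was called, all lower. Scaling by total UMIs alone moved the median log2 fold change of all genes from 0.00 to 0.33 and the split of calls from 1427 higher and 690 lower to 1706 higher and 334 lower. When nuclei with 2 or more markers of another lineage were removed, 5 axis genes were called, and when each nucleus was thinned to 2000 UMIs the count was again 5. A sixth gene was called under 8 of 19 alternatives. It was Igfals in 7 of them, among them DESeq2 (adjusted p = 0.00229), Storey q-values and no filter on low counts, and Bcl6 without chow replicate 1. Fewer passed without MASH replicate 1 (Socs2, Hsd3b5 and Elovl3) and without MASH replicate 2 (Socs2 and Elovl3).

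Detection per nucleus was then compared at a fixed depth, with every hepatocyte nucleus thinned to 2000 UMIs so that none was left out. Socs2 was found in 32.0%, 43.7% and 23.6% of chow nuclei and in 3.17% and 6.24% of MASH nuclei. Cish was found in 26.2%, 39.7% and 16.6% of chow nuclei and in 3.76% and 4.98% of MASH nuclei. Igf1 was found in 65.4%, 82.9% and 53.7% of chow nuclei and still in 32.2% and 35.01% of MASH nuclei. Each of these genes was thus found in fewer nuclei in both MASH libraries than in any chow library.

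Elovl3 was detected in 19.04%, 17.3% and 17.7% of chow and in 3.06% and 2.30% of MASH nuclei, and Igfals in 7.98%, 5.66% and 1.56% against 1.45% and 1.30%. Hsd3b5 was detected in 11.2%, 13.998% and 1.63% of chow nuclei and in 0 of 2684 and 0 of 2611 MASH nuclei, which allows shares of nuclei with a UMI of up to 0.112% and 0.115% at this depth (3 nuclei of the total, for counting error only). Without thinning it was found in 3.80% to 27.2% of chow nuclei and in 0.112% of nuclei of MASH replicate 1. For Bcl6 alone both MASH shares exceeded all chow shares, with 31.5% and 21.8% against 21.1%, 10.5% and 8.82%. Among nuclei with at least 2 Hnf4a UMIs the groups overlapped for Bcl6, with 21.1% in MASH replicate 2 and 21.9% in chow replicate 1.

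Ghr was found in 28.5% to 69.8% of chow and 56.7% and 58.6% of MASH nuclei, Stat5a in 6.79% to 14.99% and 13.8% and 14.7%, and Stat5b in 9.79% to 19.9% and 15.8% and 16.9%. For these 3 genes the groups overlapped. Exact permutation tests over libraries (two-sided, 3 against 2, smallest possible p = 0.1) gave p = 0.1 for Socs2 and Elovl3, p = 0.2 for Igf1, Igfals, Cish, Bcl6 and Hsd3b5 and p = 0.4 to 0.9 for the rest. All values were 0.286 or above after Benjamini-Hochberg adjustment over the 10 genes, in a design that cannot reach 0.05. Free RNA can give a UMI to a nucleus that does not express a gene. It was not measured, and the level of Alb by lineage is given below.

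Position along the lobule was compared next. Hepatocytes near the portal vein (periportal) and near the central vein (pericentral) carry out different metabolic tasks. The hepatocyte nuclei of each library were ordered by the mean level of 10 pericentral minus 10 periportal markers, which include none of the 10 genes, and cut into 3 equal groups. Glul, a pericentral marker used for the ordering, was 10.3-fold higher in the pericentral group in chow and 15.8-fold in MASH, which only shows that the cut worked. UMIs were summed per group and library and tested in edgeR with library as a block over 14587 genes.

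**Figure D3:**
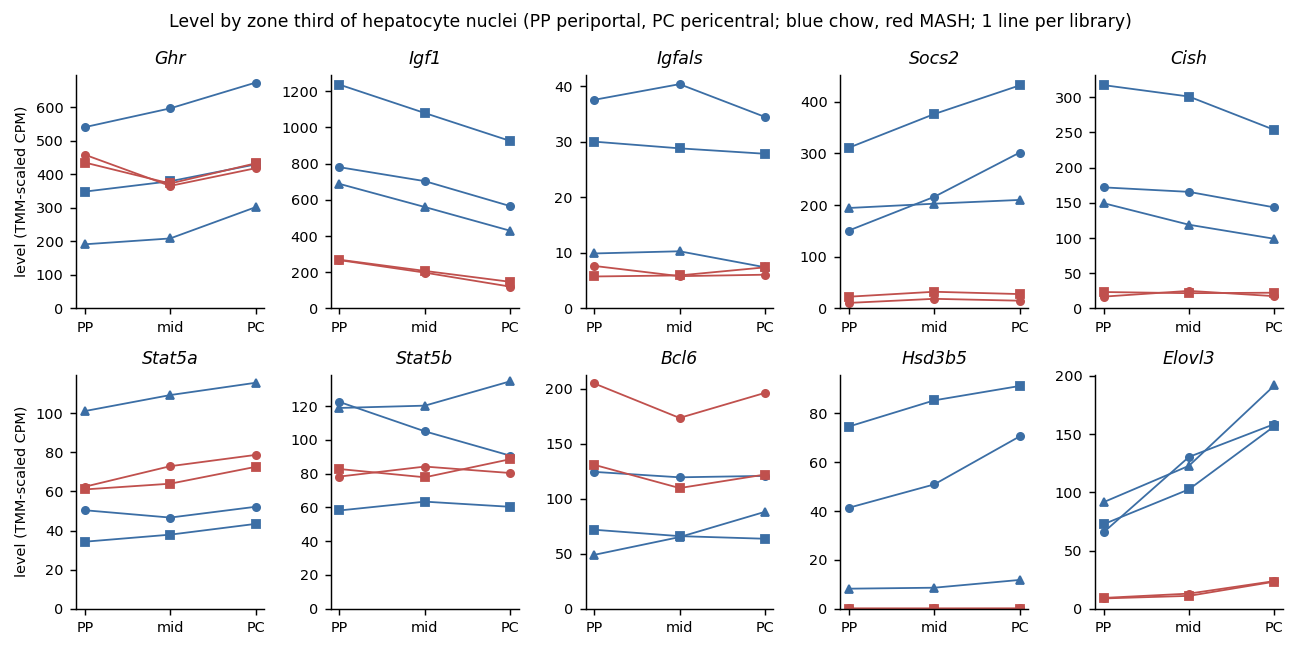
TMM-scaled CPM (y axis, linear, from 0) of the 10 genes in the periportal (PP), middle and pericentral (PC) group of hepatocyte nuclei (x axis), with a line per library in blue for chow and red for MASH. Elovl3 climbs towards PC in all 5 libraries and Igf1 declines in all 5, while Ghr climbs in the 3 chow lines only.

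In chow the gradients ran in both directions. Elovl3, Ghr, Socs2, Hsd3b5 and Stat5a were higher in the pericentral group and Igf1 and Cish were lower, against 14.2% of all genes called higher and 12.9% called lower. Elovl3 had the steepest gradient. It rose from 65.6, 72.6 and 91.5 TMM-scaled CPM in the periportal group to 159, 157 and 192 in the pericentral group of chow replicates 1, 2 and 3, or 2.20-fold (log2 fold change 1.14 ± 0.08, edgeR adjusted p = 3.31e-08). Igf1 went the other way, from 780, 1236 and 688 periportal to 565, 925 and 429 pericentral, or 1.43-fold lower (-0.52 ± 0.06, edgeR adjusted p = 1.20e-05). Each of these directions was seen in all 3 chow libraries.

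The feedback inhibitors had opposite gradients in chow. Socs2 went from 151, 311 and 194 TMM-scaled CPM periportal to 302, 432 and 210 pericentral (log2 fold change 0.52 ± 0.10, edgeR adjusted p = 0.00111), with almost no slope in replicate 3. Cish went from 172, 317 and 149 to 143, 253 and 98.9 (-0.39 ± 0.08, edgeR adjusted p = 0.000863). The Socs2 call was lost when the order rested on Cyp2e1 minus Cyp2f2 alone (0.29, adjusted p = 0.0729). Ghr was 1.34-fold higher in the pericentral group (0.43 ± 0.07, adjusted p = 0.000214), Hsd3b5 1.43-fold (0.51 ± 0.09, adjusted p = 0.000918) and Stat5a 1.14-fold (0.19 ± 0.07, adjusted p = 0.0376), the last of which missed the threshold under 7 alternatives. Igfals (-0.17 ± 0.10), Stat5b (-0.06 ± 0.09) and Bcl6 (0.20 ± 0.12) did not pass.

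In MASH 3 of the 10 genes passed, against 6.73% of all genes called higher and 8.08% called lower in the pericentral group. Elovl3 kept a pericentral excess at its lower level, with 9.31 and 8.86 TMM-scaled CPM periportal and 23.8 and 23.3 pericentral (log2 fold change 1.37 ± 0.19, edgeR adjusted p = 9.83e-05). Igf1 fell from 267 and 269 periportal to 120 and 147 pericentral (-1.004 ± 0.08, adjusted p = 6.75e-07). Stat5a was higher in the pericentral group (0.29 ± 0.08, adjusted p = 0.0278), a call lost without either MASH library (adjusted p = 0.315 and 0.183). Hsd3b5 could not be placed, since 3 UMIs were left in the MASH hepatocyte nuclei.

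The zone gradient differed between diets for 2 of the 10 genes, Ghr and Igf1, when the difference itself was tested, and for 5.77% of all genes. For Ghr the log2 difference of pericentral minus periportal was 0.32, 0.30 and 0.66 in chow against -0.13 and -0.01 in MASH, a change of -0.50 ± 0.11 (edgeR adjusted p = 0.0146). For Igf1 it was -0.46, -0.42 and -0.68 in chow against -1.14 and -0.87 in MASH, a change of -0.48 ± 0.11 (edgeR adjusted p = 0.0127). In both genes the libraries of the 2 diets did not overlap. The same held for Cish, Elovl3 and Hsd3b5 (3 MASH UMIs), whose changes did not pass. Such separation was not counted over all genes, so it does not set Ghr and Igf1 apart. Both calls were lost without MASH replicate 1 (adjusted p = 0.237 and 0.293), without MASH replicate 2 (0.137 and 0.0743), and with 2 zone groups (0.144 and 0.219). When nuclei were ordered by Cyp2e1 minus Cyp2f2 alone, the change for Ghr was -0.37 (adjusted p = 0.126) and that for Igf1 turned to 0.0121 (adjusted p = 0.980). The Igf1 call was also lost without chow replicate 2 (adjusted p = 0.0741). For the other 8 genes the change in gradient did not pass (adjusted p = 0.251 or above), and for Elovl3 it was 0.23 ± 0.21.

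Nuclei with at least 2000 UMIs and no Hnf4a UMI were compared as a second class, with 2311, 2628 and 1898 nuclei in chow and 3507 and 3122 in MASH. This class was not free of hepatocyte RNA. Its 9 hepatocyte markers summed to 15234 to 22540 unscaled CPM in chow and 7618 and 8930 in MASH, close to the values in the hepatocyte nuclei of the same libraries, and its median depth was lower at 2874 to 3745 UMIs. In these nuclei 6 of the 10 genes fell in MASH, against 3.63% of all genes called lower. They were Igf1 (log2 fold change -2.07 ± 0.37, edgeR adjusted p = 0.0260), Igfals (-2.50 ± 0.54, 0.0362), Socs2 (-2.99 ± 0.51, 0.0235), Cish (-3.18 ± 0.41, 0.0132), Hsd3b5 (-9.44 ± 1.28, 0.0146) and Elovl3 (-3.48 ± 0.34, 0.00770). The fitted Hsd3b5 value rests on almost no MASH UMIs and is no bound. Without MASH replicate 2 none of the 6 passed, with adjusted p from 0.0812 to 0.245, without MASH replicate 1 only Hsd3b5 and Elovl3 passed, and without chow replicate 2 Igf1, Igfals and Socs2 were lost (adjusted p = 0.0638, 0.0801 and 0.0622).

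Bcl6 and Stat5b were higher in hepatocyte nuclei than in nuclei lacking Hnf4a, by 0.16 ± 0.04 on the log2 scale each (edgeR adjusted p = 0.0341 and 0.0264), against 2.87% of all genes called higher. The Bcl6 call was lost under 7 of 12 alternatives and the Stat5b call under 5 of 12. Both were lost without MASH replicate 1 (adjusted p = 0.201 and 0.189), without MASH replicate 2 (0.317 and 0.320) and without nuclei with a mitochondrial share of 5% or more (0.174 and 0.235). Socs2 was -0.32 ± 0.10 (adjusted p = 0.0514). The difference between diets was not shown to differ between the classes for any of the 10 genes, nor for any of 15449 genes in edgeR (0% called, 898 at an unadjusted p under 0.05).

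Levels of the 10 genes were also read in nuclei that carried at least 2 markers of a single other lineage, had no Hnf4a UMI and held at least 500 UMIs. These levels, in unscaled CPM, are a description with no test. RNA of hepatocyte genes was abundant in these nuclei, and whether it was free RNA was not tested. Alb, the albumin gene, stood at 1877 to 11917 unscaled CPM in endothelial-marker nuclei and at 1462 to 5203 in hepatocyte nuclei. Elovl3 stood at 95.9, 147 and 148 in chow endothelial-marker nuclei and at 103 to 131 in chow hepatocyte nuclei. The endothelial-marker level was thus below that range in replicate 1 and above it in replicates 2 and 3. The part of free RNA in it was not tested. Hsd3b5 had 18.96 to 44.99 and Igfals 22.7 to 27.8 in the chow endothelial-marker nuclei, inside their ranges of 7.35 to 78.0 and 7.02 to 40.5 in chow hepatocyte nuclei. Within replicates 1 and 2 both genes were lower than in hepatocyte nuclei. Within replicate 3 both were higher, at 18.96 against 7.35 and 22.7 against 7.02, on 10 and 12 UMIs.

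Socs2 in MASH was higher in the nuclei of several other lineages than in hepatocyte nuclei, which held 16.3 and 32.8 unscaled CPM. In cholangiocyte-marker nuclei (134 and 562 nuclei) it stood at 103 and 372, on 37 and 416 UMIs. Stellate-marker nuclei had 45.4 and 113, endothelial-marker nuclei 36.8 and 64.8 and macrophage-marker nuclei 20.4 and 56.7. Nuclei with T or NK markers had 32.5 and 48.3, on 4 and 3 UMIs only. Alb was also above its level in hepatocyte nuclei (2072 and 1462 unscaled CPM) in all of these lineages and both libraries, with 3452 and 1768 in cholangiocyte-marker, 4308 and 2026 in stellate-marker, 4316 and 1877 in endothelial-marker and 4574 and 1646 in macrophage-marker nuclei. In MASH replicate 1 the relative excess of Socs2 over hepatocyte nuclei was thus about as large as that of Alb in endothelial-marker nuclei. It was smaller than that of Alb in macrophage-marker nuclei and larger in stellate-marker and cholangiocyte-marker nuclei. In MASH replicate 2 it was larger in each lineage whose Alb level is given. The part of free RNA in these levels was not tested. In chow the order varied between lineages and libraries. Socs2 stood at 245, 348 and 155 in hepatocyte nuclei and at 239, 204 and 186 in endothelial-marker nuclei. Stellate-marker nuclei had 268, 174 and 207, and macrophage-marker nuclei 157, 66.3 and 63.0. The cholangiocyte-marker nuclei of chow had 178, 364 and 202, but they numbered 5 to 13 and held 4 to 9 Socs2 UMIs per library.

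Igf1 in MASH stood at 280 and 362 unscaled CPM in macrophage-marker nuclei and at 329 and 289 in cholangiocyte-marker nuclei, both above the 215 and 246 of hepatocyte nuclei. Endothelial-marker nuclei (156 and 166) and stellate-marker nuclei (176 and 165) lay below them. In chow replicate 1 macrophage-marker nuclei had 940 against 731 in hepatocyte nuclei, and in chow replicate 2 they had 719 against 1003. In chow replicate 3 they had 342, again below the hepatocyte nuclei of that library. Alb in MASH was also above hepatocyte nuclei in these lineages, as given above, and the part of free RNA in the Igf1 levels was not tested. Cish in MASH was highest in nuclei with T or NK markers, at 97.4 and 177 unscaled CPM, but on 12 and 11 UMIs. Bcl6 in MASH was higher in hepatocyte nuclei, at 210 and 143, than in macrophage-marker nuclei, at 118 and 93.9.

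**Figure D4:**
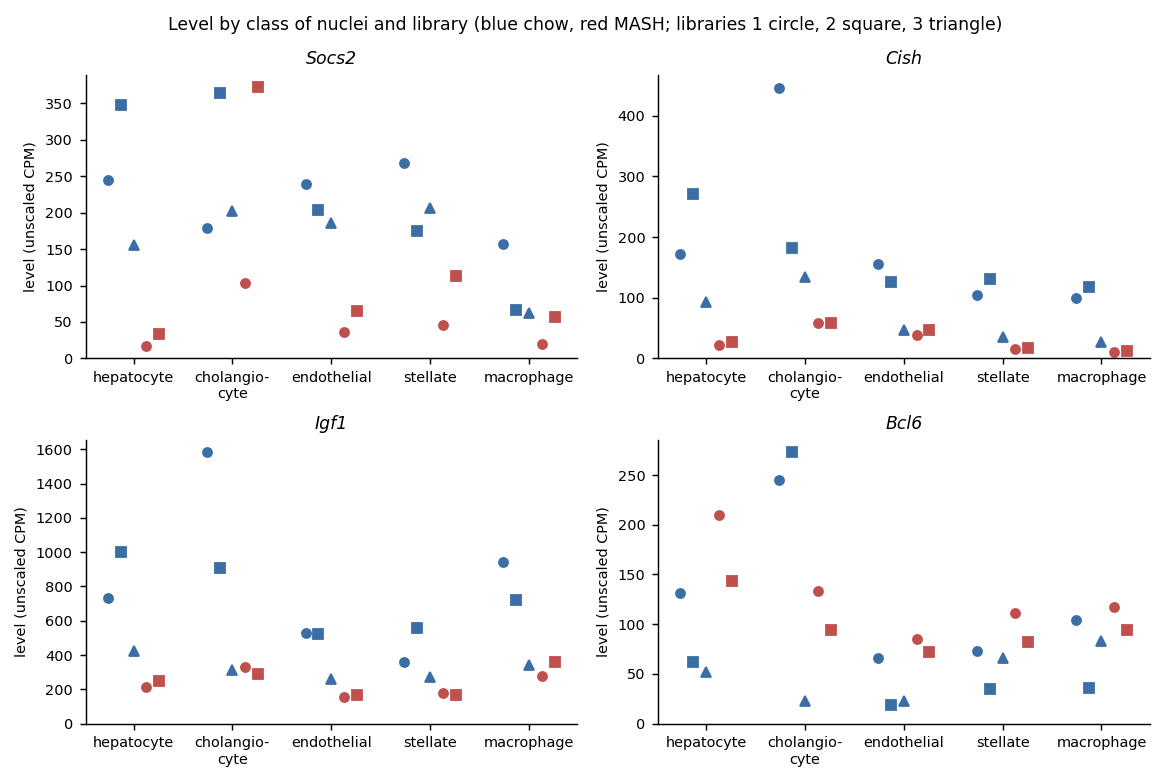
Level in unscaled CPM (y axis, linear, from 0) of Socs2, Cish, Igf1 and Bcl6 in hepatocyte nuclei and in nuclei with markers of 4 other lineages (x axis), with a point per library. In MASH (red) Socs2 stands highest in cholangiocyte-marker nuclei, and the 3 blue cholangiocyte points rest on 5 to 13 nuclei each.

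Related genes were taken from 5 lists, none of which holds any of the 10 genes. Of 28 genes of GH signalling, all tested, 1 rose and 4 fell in MASH hepatocyte nuclei, against 9.26% of all genes called higher and 4.48% called lower, and with a median log2 fold change of -0.26 against 0.00 over all genes tested. The count was 2 higher and 6 lower without chow replicate 1, 2 and 7 without the filter on low counts, 2 and 8 with Storey q-values and 2 and 9 with DESeq2. That median was 0.10 when only total UMIs were used for scaling. Jak2, the kinase of the receptor, had 16.03, 18.4 and 29.3 TMM-scaled CPM in chow and 26.1 and 18.7 in MASH (log2 fold change 0.08 ± 0.33, edgeR adjusted p = 0.891). Sirpa, a membrane glycoprotein and JAK2 substrate that is abundant in macrophages, rose from 5.13 to 8.82 in chow to 62.0 and 43.9 in MASH (3.01 ± 0.32, adjusted p = 0.00355). The macrophage markers in the gate rose with it, as given above, and their part in this value was not tested.

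Among the inhibitors outside the 10 genes, Socs3, which restrains cytokine receptors, had 84.2, 44.8 and 171 TMM-scaled CPM in chow and 16.6 and 14.9 in MASH (log2 fold change -2.66 ± 0.55, edgeR adjusted p = 0.0226). Socs1 had 4.64, 9.53 and 25.6 against 3.04 and 1.97 (-2.41 ± 0.72, adjusted p = 0.0629), with non-overlapping groups. The other genes of the list that fell were Irs2, an adaptor of the insulin receptor (-2.22 ± 0.55, adjusted p = 0.0386), Prlr, the prolactin receptor (-2.14 ± 0.27, adjusted p = 0.00570), and Stat3 (-1.73 ± 0.34, adjusted p = 0.0200). Chow replicate 3 was the highest library for Socs1, Socs3, Irs2 and Stat3. Without either MASH library Sirpa alone of this list was called.

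Of 15 genes of the IGF system 10 passed the filter on low counts, of which 2 rose and none fell, against 9.26% of all genes called higher and 4.48% called lower. Without the filter all 15 were tested, 3 rose and 1 fell, and the median log2 fold change was 0.05. The count was also 3 higher and 1 lower with Storey q-values, and 3 and 0 with scaling by total UMIs alone. It was 1 and 0 when doublets or nuclei with 2 markers of another lineage were removed, and when nuclei were thinned. The same 1 and 0 came with at least 2 Hnf4a UMIs, with at least 5 CPM in 2 sums and with DESeq2. Igfbp3, the main carrier of circulating IGF-1, had 2.88 to 3.18 TMM-scaled CPM in chow and 13.2 and 8.27 in MASH (1.84 ± 0.34, edgeR adjusted p = 0.0166). Pappa, a protease of IGF-binding proteins, rested on 2 chow and 16 MASH UMIs, and passed the filter through MASH alone, with a ratio of 23.3 and a 95% counting interval of 5.47 to 208. Neither gene of the list was called without MASH replicate 1, without MASH replicate 2 or without chow replicate 2.

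Sex-biased genes of the liver, which depend on the pattern of GH release, were counted in these male livers. Of 22 male-biased genes, all tested, 17 fell and none rose, with a median log2 fold change of -3.23, against 4.48% of all genes called lower. Without MASH replicate 1 the number was 11 and without MASH replicate 2 it was 7. Among the called genes the largest changes were in Mup1, a major urinary protein gene (67.1, 97.9 and 248 TMM-scaled CPM in chow, 0.775 and 0.144 in MASH, log2 fold change -8.27 ± 0.94, edgeR adjusted p = 0.00449), Mup7 (-7.78 ± 1.07, adjusted p = 0.00714) and Serpina1e, an alpha-1 antitrypsin gene (-6.91 ± 0.94, adjusted p = 0.00702). All of these belong to families of near-identical copies, so their individual counts are uncertain.

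Of 21 female-biased genes 10 had enough UMIs to pass the filter, and of the 21 genes 4 rose and 1 fell, against 9.26% of all genes called higher and 4.48% called lower. Genes such as Cyp2a4 passed it through their MASH libraries alone, so the 10 do not stand for the list. Without the filter 18 of the 21 were tested, again with 4 higher and 1 lower, and the median log2 fold change was 0.74. Cyp2a4, a cytochrome P450, stood at 0, 0.0351 and 0.135 TMM-scaled CPM in chow and at 6.80 and 1.87 in MASH, on 5 and 153 UMIs (log2 fold change 6.08 ± 0.95, edgeR adjusted p = 0.0104). Cyp2b9 rose from 0.505 to 2.34 in chow to 19.5 and 12.3 in MASH (3.23 ± 0.59, adjusted p = 0.0166), and Abcb1a, a drug efflux pump (adjusted p = 0.00729), and Cyp2b13 (adjusted p = 0.0490) were the others that rose. Cyp2b10, a target of the xenobiotic receptor CAR, fell from 437 chow UMIs to 2, a ratio of 0.0133 with a 95% counting interval of 0.00161 to 0.0483. Cyp2a and Cyp2b genes have close paralogs. Without MASH replicate 1 none of the 4 that rose was called, and without MASH replicate 2 a single one was.

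Of 11 liver factors linked to the axis 3 fell and none rose, against 4.48% of all genes called lower, with a median log2 fold change of -0.85. The number that fell was 6 without chow replicate 3, without the filter on low counts, with DESeq2 and with Storey q-values. Egfr, a growth factor receptor whose level in liver depends on GH, had 668, 1960 and 2185 TMM-scaled CPM in chow and 74.5 and 106 in MASH (-4.15 ± 0.64, edgeR adjusted p = 0.00979). Onecut1, a hepatocyte transcription factor, had 492, 1193 and 128 against 39.4 and 43.9 (-3.86 ± 0.89, adjusted p = 0.0305), and Foxa3 had 40.9, 81.0 and 147 against 22.6 and 26.5 (-1.87 ± 0.50, adjusted p = 0.0480). None of the 3 was called without either MASH library, and a single one was without chow replicate 2. Hnf4a, whose level enters the choice of nuclei, had -1.10 (adjusted p = 0.0746).

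**Figure D5:**
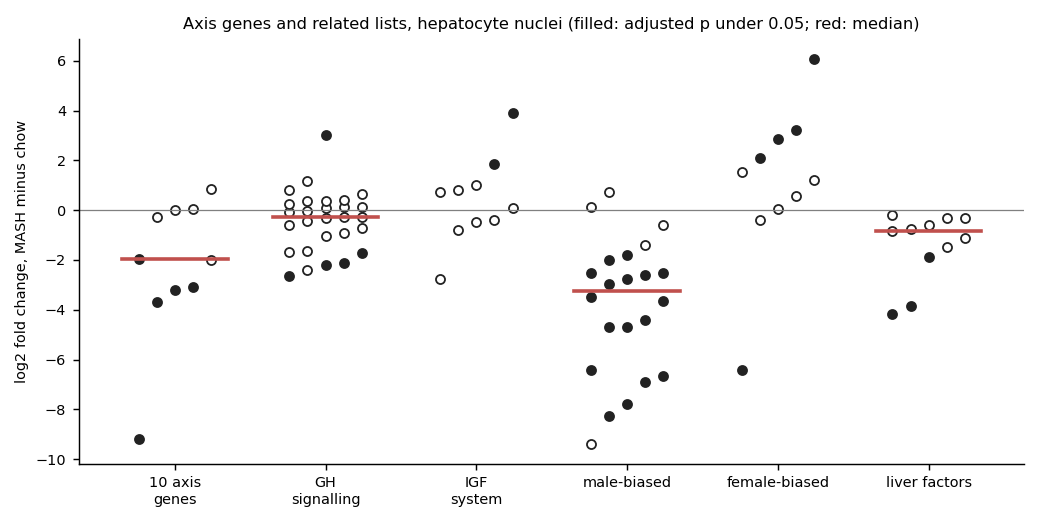
Log2 fold change of MASH over chow (y axis) in hepatocyte nuclei for the 10 axis genes and the tested genes of 5 related lists (x axis), with a point per gene, filled where the adjusted p was under 0.05, and a red line at the median where every gene of the list was tested. These medians are -1.98 for the axis genes, -0.26 for GH signalling, -3.23 for the male-biased genes and -0.85 for the liver factors.

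The genes whose level over the 15 sums (5 libraries by 3 zone groups) was most like each of the 10 genes were sought among 8968 genes with a mean of at least 10 CPM. The sums of a library share its depth and its mice, so Pearson's r is a description here. The closest to Hsd3b5 were Ugt2a3 (0.993), Cmtm6 (0.989) and Hacl1 (0.987). The closest to Socs2 were Tmem30a (0.991), Hopx (0.983) and Timm9 (0.982), and to Cish they were Gm16551 (0.988), Hao1 (0.983) and Zfp141 (0.981). Igf1 was closest to Ccnl2 (0.975), Ndufab1 (0.968) and Agt (0.966), Igfals to Abcb11 (0.984), Ergic2 (0.982) and Keg1 (0.978), and Elovl3 to Gm42067 (0.976), Cyp2c29 (0.975) and Trmt13 (0.975). Each of these 6 genes separated the diets, as described above.

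The levels of the other 4 genes overlapped between the diets. Ghr was closest to Gstz1 (0.980), Hgd (0.979) and Pecr (0.978), Stat5a to Ddit3 (0.942), Msantd4 (0.938) and Trim12c (0.937), Stat5b to Efna1 (0.965), Gm15991 (0.962) and Zfp36l1 (0.955), and Bcl6 to Dock8 (0.936), Taok3 (0.935) and 2900052L18Rik (0.927). Among the 10 genes themselves, Socs2 and Cish were the closest pair (0.97), Cish also had 0.96 with Igf1 and with Hsd3b5, and Bcl6 ran against Socs2 (-0.80), Cish (-0.75) and Igf1 (-0.72). Stat5a and Stat5b, which share a locus, had 0.71.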

How the data were processed

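The deposited files are unnormalised counts of UMIs for each gene in each barcode, which the authors made from 10x Genomics 3′ libraries with Cell Ranger 8.0.1 on GRCm38, with intronic reads left out per the methods of the study. They list filtered barcodes without cell types. Barcodes were kept at 2000 UMIs or more with any mitochondrial share, doublets were not removed in the reported values, and nuclei were split by 1 Hnf4a UMI. UMIs were summed per library, and per zone group or class, and tested in edgeR 4.0.16 (R 4.3.3, TMM scaling, filterByExpr, glmQLFit and glmQLFTest, Benjamini-Hochberg), with library as a block where sums of a library were compared. The diet fit of hepatocyte nuclei was tested on simulated counts with a common dispersion for all genes. The zone and class fits were not simulated. The 10 genes, the lists and the tests were chosen with earlier results of these data known, so list counts are a description.

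The genes named from each list were the 3 called genes with the largest absolute log2 fold change in the diet comparison of hepatocyte nuclei, beside Jak2, Socs1, Socs3, the Hsd3b paralogs and, for each of the 10 genes, the 3 with the highest Pearson r of log2(CPM + 1) over the 15 sums. Irs2, Prlr, Stat3, Abcb1a, Cyp2b13 and Hnf4a were named after their values were seen. Zone scores used log counts per 10000, standardised within each library. Alternatives were DESeq2 1.42.0, other scalings, filters, gates and zone scores, Scrublet (scanpy 1.11.5, highest scores removed at 0.8% per 1000 barcodes), a replicate block, and each library left out in turn. A fit with 1 MASH library assumes that it varies as the chow libraries do. Intervals cover counting error only.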

Additional observations from a re-analysis of the deposited data

Results flagged for a closer look

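The contrast between the pericentral and the periportal group of hepatocyte nuclei differed between diets for 2 of the 10 genes in the test of that difference (edgeR with library as a block). For Ghr the log2 gradient changed by -0.50 ± 0.11 (adjusted p = 0.0146), and for Igf1 by -0.48 ± 0.11 (adjusted p = 0.0127). Without MASH replicate 1 these were -0.42 (adjusted p = 0.237) and -0.34 (adjusted p = 0.293), and without MASH replicate 2 they were -0.54 (adjusted p = 0.137) and -0.61 (adjusted p = 0.0743). For Igf1 the adjusted p was 0.0741 without chow replicate 2. No sample of a group was tested as an outlier, since the groups hold 3 and 2 libraries.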

How the results depend on the processing

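Of the values for single genes and lists under the alternatives, 1084 kept their direction and their side of the threshold, 49 lost a call, 22 gained one, 39 moved and 1 reversed. The reversal was the Igf1 change of zone gradient, which was 0.0121 (adjusted p = 0.980) when nuclei were ordered by Cyp2e1 minus Cyp2f2 alone. The Ghr change was -0.37 in that order (adjusted p = 0.126) and -0.37 with 2 zone groups in place of 3 (adjusted p = 0.144), where that of Igf1 was -0.28 (adjusted p = 0.219). The number of genes called in the diet comparison of hepatocyte nuclei, 2117, was 3322 without a filter on low counts, 1178 with at least 5 CPM in 2 sums, 3598 with DESeq2, 4063 with Storey q-values and 216 to 3298 with a library left out. In nuclei lacking Hnf4a, 1488 genes became 2556 without the filter, 2969 with DESeq2, 2655 with the replicate block and 22 to 2883 with a library left out. The zone comparison in MASH (2160) gave 1172 with 2 zone groups, 1343 with scores on thinned nuclei and 575 to 2581 with a library left out, and the change of zone gradient (841) gave 233 with 2 zone groups and 154 to 1097. In chow the zone count of 3955 ranged from 2993 to 3613 with a library left out. The class comparison (1321) gave 777 at 5 CPM or more, 5440 with at least 1000 UMIs, 208 with a mitochondrial share under 5% and 330 to 1520 with a library left out. The class by diet count of 0 became 93 without the filter and 2 with at least 1000 UMIs, and ranged from 0 to 7 with a library left out. Socs2 was among those called in that comparison without the filter (-0.68) and without chow replicate 1 (-0.89). The cause of these changes was not tested, except that a stricter filter tests fewer genes and a left-out library leaves fewer samples.

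Replicate numbers are shared by the diets but nothing says that they mark a batch. They were therefore not taken as pairs. Same-numbered libraries had correlations of their deviations from the group means of -0.130 and -0.205. The deviations of the 2 MASH libraries mirror each other by construction, so these values cannot decide on pairing. With the replicate block 1937 genes were called in hepatocyte nuclei, and of the 10 genes Igfals was called as well (log2 fold change -2.38, adjusted p = 0.00134). Hsd3b5 rested on 3 UMIs in MASH hepatocyte nuclei, and shares of nuclei could not reach an exact p below 0.1 in the permutation test. The number of the 10 genes with non-overlapping shares, 7, was 6 unthinned, 6 with at least 2 Hnf4a UMIs and 7 to 8 with a library left out. Non-overlapping shares were not counted over all genes, so this number is a description and cannot set the 10 genes apart.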
